A study of Mus musculus with 11 samples.

Results

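The 9 genes described here encode transcription factors that hold the hepatocyte programme in place: Hnf4a, Cebpa, Cebpb, Foxa2, Onecut1, Nr5a2, Nr1i2, Nr1i3 and Rxra. They were taken by name from a count table of 55414 genes, and all 9 were found there. RNA was sequenced from whole liver of 11 male mice of the Clec4f-DTR genotype, which was shared by every group, controls included. The groups were WDA-DT, 4 mice that ate western diet with alcohol and received repeated injections of diphtheria toxin (DT livers), WDA-Saline, 4 mice on that diet that received saline instead (saline livers), and chow, 3 mice on normal chow. Diets began at 8 weeks of age and lasted 16 weeks. In this genotype the toxin receptor is driven by the promoter of Clec4f, a gene of Kupffer cells, the resident macrophages of the liver. No injection is named for the chow mice, so diet and injection cannot be told apart in comparisons with chow livers.

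Hepatocytes keep their identity through a set of factors that bind one another's genes and, together, the genes of lipid, bile acid, glucose and drug metabolism. HNF4A, C/EBP alpha, FOXA2 and HNF6 (the product of Onecut1) form the core of that set, and C/EBP beta is the relative of C/EBP alpha that is known to respond to inflammation and injury. The other factors are nuclear receptors. LRH-1 (Nr5a2) acts as a monomer on bile acid and cholesterol genes, PXR (Nr1i2) and CAR (Nr1i3) induce enzymes that clear drugs, hormones and bile acids, and RXR alpha (Rxra) is the partner with which PXR, CAR, the PPARs, FXR and LXR bind DNA. HNF4A binds DNA as a homodimer.

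The control regions of 3 of these genes, which have more than 1 annotated start, are shown. Counts per gene do not say which start was used. Nr5a2 and Rxra were chosen because, with libraries scaled by TMM, they were lower in every DT liver than in any saline liver. Hnf4a was chosen as the head of the network. Each sequence is the 250 bases before a start, 5′ to 3′ on the strand of the gene, from RefSeq on build GRCm38.p6, which is an earlier build than the one the reads were aligned to. Capitals mark matches, on either strand, to AGGTCA (the hexamer that nuclear receptors bind), ATCAAT (HNF6), TTGCNNAA (C/EBP) and CCAAT. Of 32851 mouse windows of this length, 14.0% held AGGTCA, 6.72% ATCAAT, 9.56% TTGCNNAA and 33.8% CCAAT. Hnf4a is shown with its upstream start (known as P2) at chr2:163506607-163506856 and its downstream start (P1, the one known for adult liver) at chr2:163546905-163547154, both on the plus strand, Nr5a2 at chr1:136953631-136953880 and chr1:136960449-136960698, both on the minus strand, and Rxra at chr2:27709042-27709291 on the plus strand.
Hnf4a upstream start: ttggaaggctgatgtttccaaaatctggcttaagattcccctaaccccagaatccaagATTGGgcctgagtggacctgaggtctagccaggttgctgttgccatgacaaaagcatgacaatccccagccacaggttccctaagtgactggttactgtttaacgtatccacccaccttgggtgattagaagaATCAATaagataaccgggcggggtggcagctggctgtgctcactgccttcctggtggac
Hnf4a downstream start: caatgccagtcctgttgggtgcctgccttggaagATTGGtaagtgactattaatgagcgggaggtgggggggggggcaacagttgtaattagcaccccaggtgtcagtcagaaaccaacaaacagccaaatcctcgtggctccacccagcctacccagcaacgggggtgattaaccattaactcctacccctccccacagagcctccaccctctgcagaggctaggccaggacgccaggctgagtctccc
Nr5a2 first window: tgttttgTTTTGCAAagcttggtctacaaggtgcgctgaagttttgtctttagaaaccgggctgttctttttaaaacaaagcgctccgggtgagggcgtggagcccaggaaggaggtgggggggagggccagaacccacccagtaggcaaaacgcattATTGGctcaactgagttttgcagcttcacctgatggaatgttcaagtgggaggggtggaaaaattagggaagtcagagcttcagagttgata
Nr5a2 second window: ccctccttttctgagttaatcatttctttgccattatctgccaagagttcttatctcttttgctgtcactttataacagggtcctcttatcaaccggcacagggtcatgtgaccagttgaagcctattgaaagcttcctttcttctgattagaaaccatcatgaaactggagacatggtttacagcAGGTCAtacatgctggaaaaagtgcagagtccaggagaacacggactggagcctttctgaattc
Rxra downstream start: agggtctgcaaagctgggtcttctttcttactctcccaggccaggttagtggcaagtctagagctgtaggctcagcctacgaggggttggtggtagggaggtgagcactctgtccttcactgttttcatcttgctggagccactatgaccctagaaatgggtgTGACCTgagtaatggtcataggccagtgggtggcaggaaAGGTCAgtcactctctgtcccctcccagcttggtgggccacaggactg
Both Hnf4a windows held a CCAAT match on the minus strand, with first bases 192 and 216 bases before the upstream and downstream starts, and the upstream window an ATCAAT match 59 bases before its start. The printed Rxra window held 2 AGGTCA matches, on opposite strands, with first bases 48 and 87 bases before the start, and the window of its upstream start, at chr2:27676951-27677200 and not printed, held none of the motifs searched. AGGTCA also stood 64 bases before the start in the second Nr5a2 window, while the first Nr5a2 window held TTGCNNAA and CCAAT matches. Over all 14 windows of the 9 genes, 2 held AGGTCA, 2 ATCAAT, 1 TTGCNNAA and 5 CCAAT, and none held CAAGGTCA (LRH-1; it contains AGGTCA), CAAAGTCCA (HNF4) or TGTTTAC (FOXA), which were in 1.33%, 0.384% and 3.17% of mouse windows. The windows of Cebpa, Cebpb, Onecut1 and Nr1i3 held none of the motifs searched. A match describes letters only.

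Counts summed to between 43995217 and 58089531 a liver, 17038 genes passed the filter on low counts, and all 9 members were among them. Clec4f averaged 9.48 CPM (counts scaled to library size, TMM-normalised) in DT livers, 45.9 CPM in saline livers and 45.0 CPM in chow livers, with no overlap between DT livers and the others. In a principal component analysis of 500 highly variable genes, DT livers 1, 3 and 4 separated from the remaining livers on component 1 (75.9% of the variance), where DT liver 2 lay close to saline livers. Hepatocyte markers (7 genes, Alb, Apoa1 and Ttr among them) summed to 76974 to 102309 CPM in DT livers, 99411 to 116270 CPM in saline livers and 115902 to 132416 CPM in chow livers, so the label of whole liver fits its markers. The 6 cholangiocyte markers summed to 85.0, 8.89, 56.8 and 95.8 CPM in DT livers 1 to 4, against 3.88 to 7.72 CPM in saline livers and 9.91 to 18.4 CPM in chow livers, with Krt7 and Cftr at 0 counts in at least 1 liver. Stellate cell and fibroblast markers summed to 245 to 525 CPM, 170.2 to 310.3 CPM and 136 to 174 CPM in DT, saline and chow livers. In bulk tissue, fewer cells of a type and less RNA per cell cannot be told apart, and the part of cell makeup in the results below was not tested. Nothing in the labels says more of how the mice of a group relate, and p-values measure the spread between these livers.

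Levels of different genes were compared as TPM, which accounts for transcript length. TPM is not scaled by TMM, so the groups are compared by CPM elsewhere. In TPM, DT and saline livers overlapped for Nr5a2 (21.4 to 28.6 TPM against 27.5 to 32.7 TPM). They also overlapped for Rxra (210 to 288 TPM against 245 to 293 TPM). In DT livers Hnf4a led with 513 ± 77.2 TPM, and was followed by Cebpa with 384 ± 25.4 TPM and Cebpb with 383 ± 119.6 TPM (SD, n = 4). Rxra had 237 TPM, Nr1i2 123 TPM, Nr1i3 99.9 TPM, Foxa2 41.9 TPM, Nr5a2 24.9 TPM and Onecut1 8.28 TPM in the same livers. The neighbours Cebpa and Cebpb, Cebpb and Rxra, and Nr1i2 and Nr1i3 overlapped between DT livers, and the other neighbours did not. In saline livers Cebpa stood first, with 583 ± 27.2 TPM, above Hnf4a with 383 ± 47.1 TPM (SD, n = 4) and with no overlap. Nr1i3 stood above Nr1i2 there, with 147 TPM and 68.7 TPM, again without overlap. In chow livers Hnf4a led with 538 ± 83.0 TPM, then Cebpb with 399 ± 183 TPM and Cebpa with 328 ± 38.1 TPM (SD, n = 3), and these 3 overlapped as neighbours. Onecut1 was the lowest of the 9 genes in every group, with 13.1 TPM in saline livers and 2.59 TPM in chow livers. Its TPM uses all 4113 exonic bases, of which 52.8% are shared with Gm20649 on the same strand. The effect of that overlap on its level was not tested. The TPM of Nr1i3 uses all 4414 exonic bases, of which 74.9% are shared with Tomm40l on the other strand. What that overlap does to the level of Nr1i3 was not tested either.

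**Figure D1:**
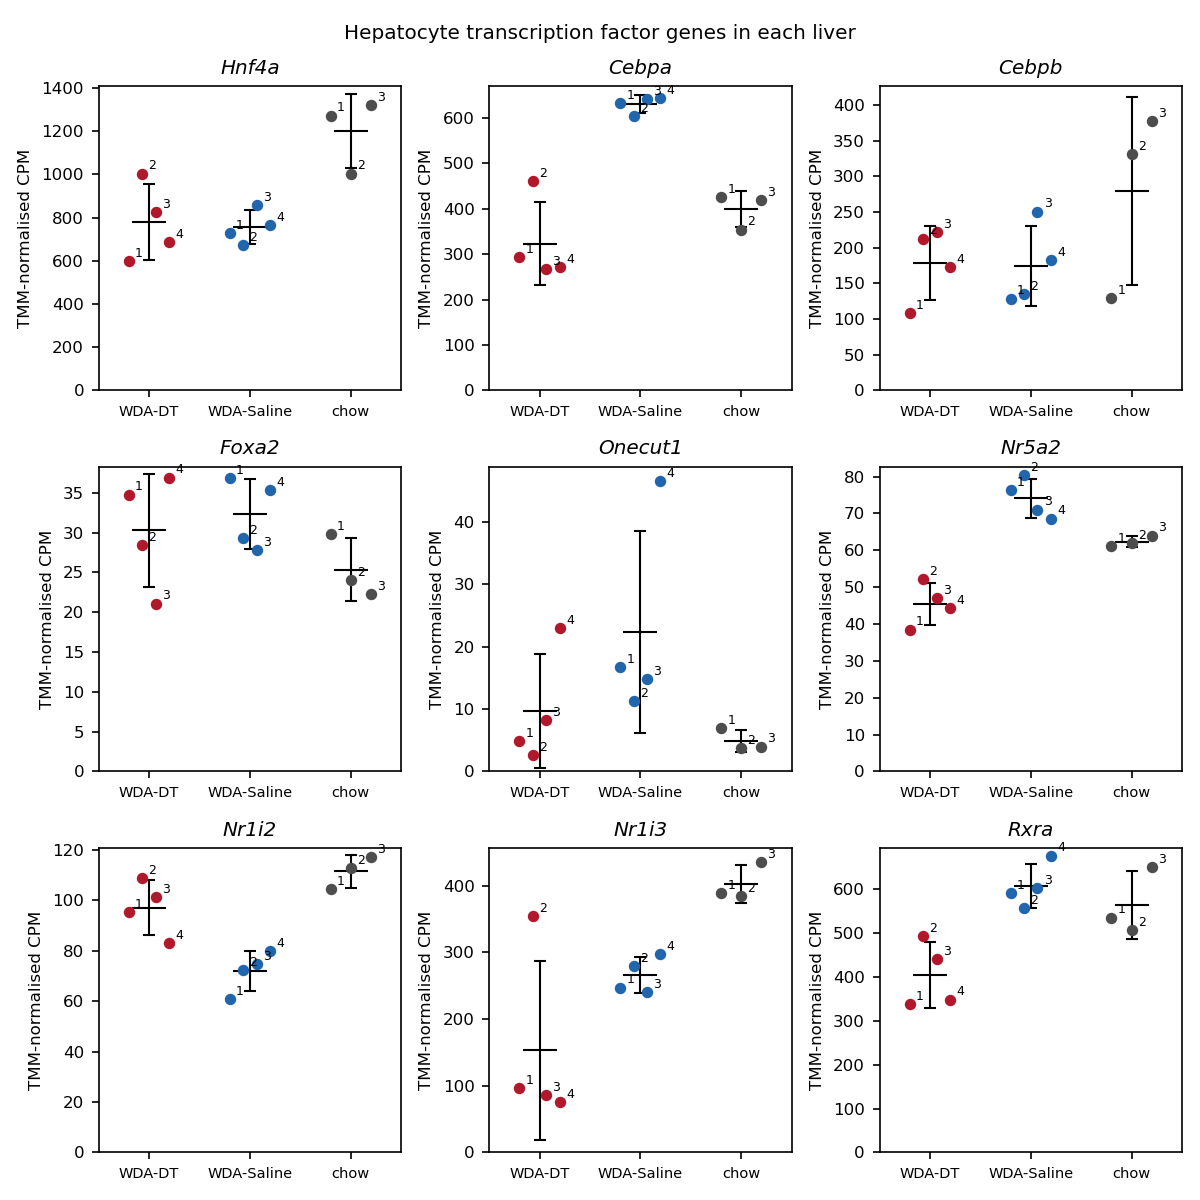
TMM-normalised CPM of each of the 9 factor genes (vertical axis, from 0) in WDA-DT, WDA-Saline and chow livers, 1 point per liver with its replicate number, bars for the group mean and SD. DT livers lie below all saline livers for Cebpa, Nr5a2 and Rxra and above them for Nr1i2, and DT liver 2 stands above the other DT livers for Cebpa (460 CPM) and Nr1i3 (354 CPM).

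The first comparison asked what toxin did to these genes in mice that were on western diet with alcohol. Cebpa fell to about 0.512 of its saline level, Nr5a2 to 0.614 and Rxra to 0.667, and Nr1i2 rose 1.35-fold, while the level of Hnf4a, the head of the network, moved by less than its spread. So 3 of 9 members fell, 1 rose and 5 did not pass the test, where 21.9% of all 17038 genes tested were called, 14.3% higher and 7.62% lower. Higher genes were 65.2% of those called, 92.1% under total count scaling, 75.7% under upper quartile scaling and 53.1% with limma-voom. With the correction for GC content, where the median log2 fold change of all genes was -0.16, they were 38.2% of 4615 called. In TMM-normalised CPM the same 4 members did not overlap between DT and saline livers, against 19.3% of all genes. The median log2 fold change of the members was -0.58, and that of all genes tested was 0.02. Calls are Benjamini-Hochberg adjusted p-values below 0.05 over all genes in edgeR's quasi-likelihood test, as are all calls below unless another tool is named.

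Cebpa, the C/EBP that drives terminal differentiation of hepatocytes and their glucose and lipid genes, had 293, 460, 268 and 271 CPM in DT livers 1 to 4, against 633, 603, 641 and 644 CPM in saline livers. Every DT liver lay below every saline liver, and DT liver 2 stood apart from the other DT livers on the high side. The log2 fold change was -0.96 (SE 0.18, edgeR adjusted p = 0.00703). Its relative Cebpb had 108, 213, 222 and 173 CPM in DT livers, against 129, 135, 251 and 183 CPM in saline livers. The ranges overlapped, and the log2 fold change of 0.04 (SE 0.34, edgeR adjusted p = 0.947) had a 95% interval of -0.70 to 0.77. The antisense gene Gm45091, whose annotated exons share 51 bases with Cebpa, had 1.00 to 1.39 CPM in DT livers and 2.49 to 3.13 CPM in saline livers. The strand setting of the counting is not stated, so reads of the shared stretches of Cebpa with Gm45091, Cebpb with Tmem189 and Nr1i3 with Tomm40l cannot be told apart. Onecut1 shares 2171 annotated exon bases (52.8%) with Gm20649 on the same strand, where no strand setting separates reads. Gm20649 had 0 CPM in every liver, and how reads of that stretch were counted is not stated.

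Nr5a2, whose pair of start windows is shown above, had 38.5, 52.2, 47.1 and 44.3 CPM in DT livers 1 to 4, against 76.3, 80.5, 71.0 and 68.6 CPM in saline livers. With TMM scaling both groups were tight and well apart, and DT liver 2 was the highest of the DT livers. The log2 fold change was -0.70 (SE 0.11, edgeR adjusted p = 0.00433). Under total count scaling it was -0.37 (edgeR adjusted p = 0.0163), where the median of all genes was 0.36. In TPM the groups overlapped, as given above. Rxra, the shared partner receptor, had 338, 494, 440 and 348 CPM in DT livers, against 591, 558, 603 and 677 CPM in saline livers. All 4 DT livers were lower, by a log2 fold change of -0.58 (SE 0.15, edgeR adjusted p = 0.0218). The Rxra call ended without saline liver 4 (adjusted p = 0.0667), without DT liver 4 (adjusted p = 0.0595), and under scaling by total counts (log2 fold change -0.26, adjusted p = 0.116), where the median of all genes was 0.36 and Rxra lay at -0.62 relative to it; the calls of Cebpa and Nr5a2 held in all 11 refits that each left out 1 liver and under all 11 other settings.

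Nr1i2 and Nr1i3, the paired sensors of foreign compounds, did not move the same way. Nr1i2 had 95.4, 109, 101 and 83.1 CPM in DT livers 1 to 4, against 61.0, 72.5, 74.6 and 79.9 CPM in saline livers. All DT livers were higher, but the lowest of them and the highest saline liver were close, and the log2 fold change was 0.43 (SE 0.12, edgeR adjusted p = 0.0225). Nr1i3 had 97.0, 354, 85.5 and 75.2 CPM in DT livers, against 247, 280, 241 and 298 CPM in saline livers. DT livers 1, 3 and 4 lay far below all saline livers and DT liver 2 lay above them all, so the log2 fold change of -0.80 (SE 0.42, edgeR adjusted p = 0.184) did not pass. Without DT liver 2 it was -1.63 (edgeR adjusted p = 8.58e-06). The Nr1i2 call ended without saline livers 1, 2 or 3 or DT liver 3 (adjusted p = 0.0652, 0.0605, 0.0504 and 0.0591) and with only DT and saline livers in the fit (adjusted p = 0.051), and with a correction for GC content its log2 fold change was 0.10 (adjusted p = 0.655).

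Tomm40l, on the other strand, shares 74.9% of the annotated exon bases of Nr1i3. It had 16.2, 8.30, 14.0 and 14.2 CPM in DT livers 1 to 4, against 7.44, 9.70, 8.76 and 9.05 CPM in saline livers, and thus stood highest in the livers where Nr1i3 was lowest. Its log2 fold change was 0.59 (edgeR adjusted p = 0.0469), opposite in sign to that of Nr1i3.

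Hnf4a, a receptor on which much of hepatocyte metabolism depends, had 600, 1003, 824 and 686 CPM in DT livers 1 to 4, against 729, 673, 858 and 766 CPM in saline livers. DT livers spread to both sides of the saline range, and the log2 fold change of 0.04 (SE 0.18, edgeR adjusted p = 0.888) had a 95% interval of -0.35 to 0.43. Foxa2, a pioneer factor that opens liver chromatin, had 34.8, 28.5, 21.1 and 36.9 CPM in DT livers, against 36.8, 29.3, 27.8 and 35.4 CPM in saline livers. The groups overlapped, at a log2 fold change of -0.09 (SE 0.17, edgeR adjusted p = 0.729; 95% interval -0.47 to 0.29), and Foxa2 was called lower with the correction for GC content (-0.56, adjusted p = 0.0349). Onecut1, the gene of HNF6, had 4.90, 2.66, 8.25 and 23.0 CPM in DT livers, against 16.7, 11.3, 14.8 and 46.5 CPM in saline livers. Replicate 4 was the highest of its group in both, the groups overlapped, and the log2 fold change of -1.20 (SE 0.61, edgeR adjusted p = 0.174) did not pass. It was -2.07 (adjusted p = 0.0415) without DT liver 4.

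**Figure D2:**
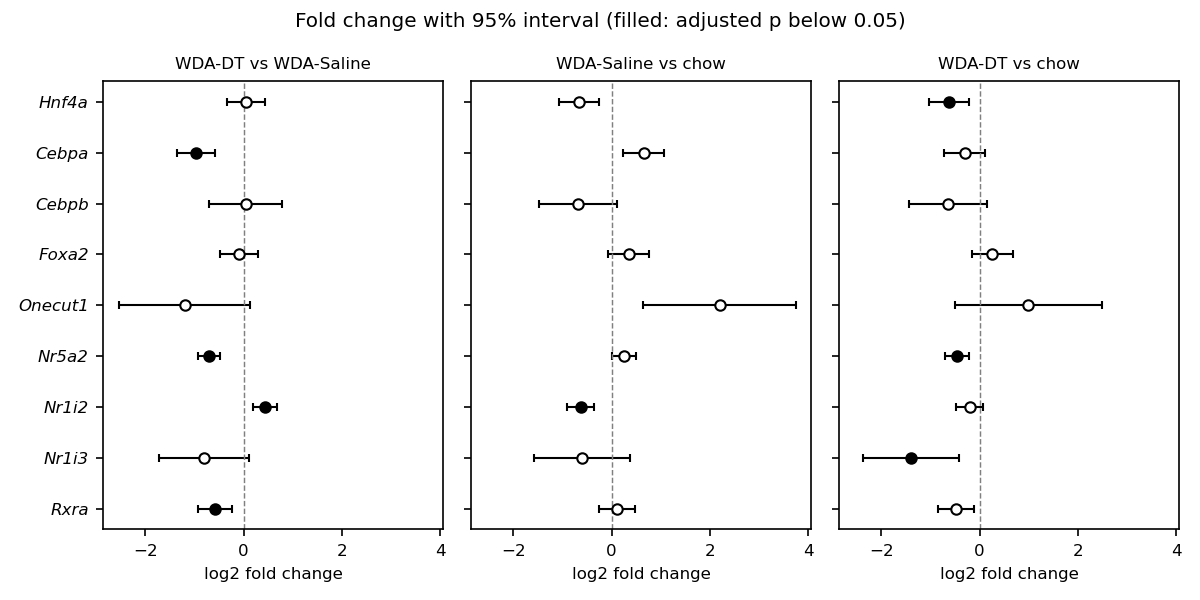
Log2 fold change (horizontal axis) of each of the 9 factor genes in WDA-DT against WDA-Saline, WDA-Saline against chow and WDA-DT against chow, with 95% intervals from edgeR's quasi-likelihood fit; filled points have an adjusted p below 0.05. Cebpa (-0.96), Nr5a2 (-0.70) and Rxra (-0.58) lie below 0 and Nr1i2 (0.43) above it in the first panel, and Onecut1 and Nr1i3 have the widest intervals.

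**Figure D3:**
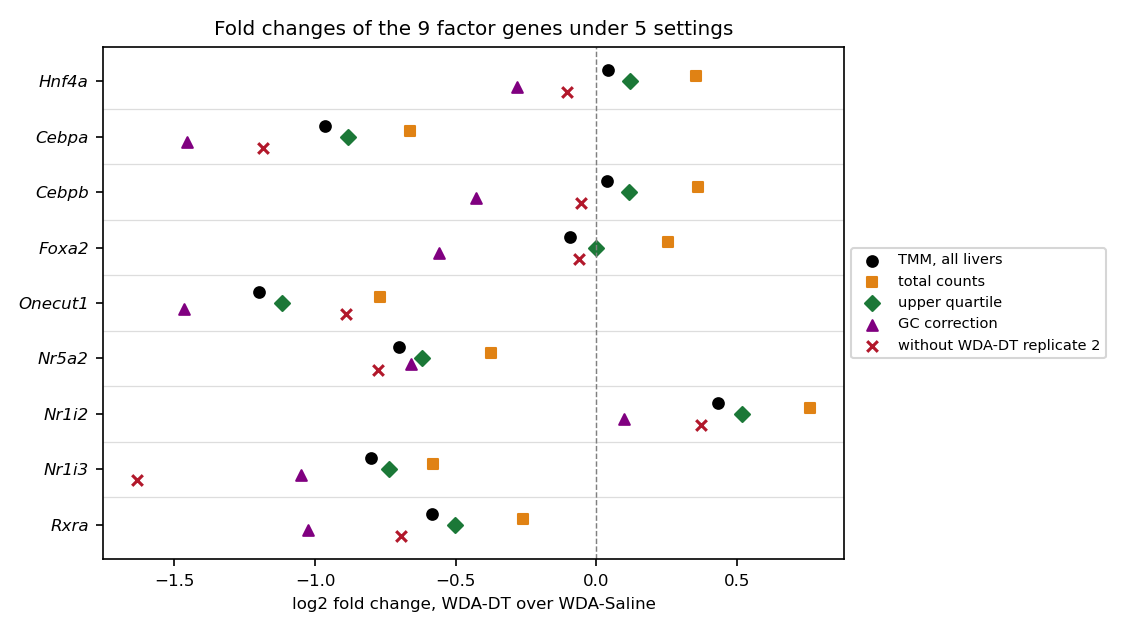
Log2 fold change of WDA-DT over WDA-Saline (horizontal axis) for the 9 factor genes under 5 settings: TMM scaling with all livers, total count scaling, upper quartile scaling, GC correction and TMM without DT liver 2. Cebpa, Nr5a2 and Rxra stay below 0 in all 5, Nr1i2 is near 0 (0.10) only with GC correction, and Nr1i3 moves to -1.63 without DT liver 2.

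The second comparison, saline against chow livers, asked what the diet with alcohol and saline injections went with while Kupffer cells were in place. Only Nr1i2 passed the test, lower at about 0.645 of its chow level. Thus 1 of 9 members was called, where 5.58% of all genes tested were, 2.45% higher and 3.13% lower (43.9% of those called were higher, and 67.0% under total count scaling), and 6 of 9 did not overlap between the groups, against 30.4% of all genes. The median log2 fold change was 0.11 for the members and 0.00157 for all genes. Nr1i2 had 61.0, 72.5, 74.6 and 79.9 CPM in saline livers, against 105, 113 and 117 CPM in chow livers. All saline livers were lower, by a log2 fold change of -0.63 (SE 0.12, edgeR adjusted p = 0.0138). That call ended without chow liver 2 (adjusted p = 0.0645), without chow liver 3 (adjusted p = 0.0587) and with GC correction (adjusted p = 0.0673).

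The other 5 members whose groups did not overlap missed the threshold. Hnf4a had 729, 673, 858 and 766 CPM in saline livers, against 1272, 1003 and 1321 CPM in chow livers, a log2 fold change of -0.66 (SE 0.19, edgeR adjusted p = 0.0654). Cebpa lay on the other side, with 603 to 644 CPM in saline livers, against 425, 354 and 419 CPM in chow livers, and a log2 fold change of 0.66 (SE 0.19, edgeR adjusted p = 0.0686). Both were called by DESeq2, in a fit of saline and chow livers only, and without DT liver 2, whose spread enters the shared estimate; Hnf4a was also called without DT liver 1 (adjusted p = 0.036). Onecut1 had 16.7, 11.3, 14.8 and 46.5 CPM in saline livers, against 6.95, 3.70 and 3.99 CPM in chow livers, a log2 fold change of 2.20 (SE 0.71, edgeR adjusted p = 0.100). Saline liver 4 was far above the rest, and without it the log2 fold change was 1.55 (adjusted p = 0.220). Onecut1 was called by DESeq2 (adjusted p = 0.0377) and with the replicate block (adjusted p = 0.0340). Nr1i3 had 241 to 298 CPM in saline livers, against 389, 384 and 436 CPM in chow livers, a log2 fold change of -0.60 (SE 0.45, edgeR adjusted p = 0.495), and without DT liver 2 the adjusted p was 0.00913. Nr5a2 had 68.6 to 80.5 CPM in saline livers, against 61.2, 61.9 and 64.0 CPM in chow livers, a log2 fold change of 0.25 (SE 0.11, edgeR adjusted p = 0.238). In the fit of saline and chow livers only, Nr5a2 was called higher (0.26, edgeR adjusted p = 0.038) and Nr1i3 lower (-0.58, edgeR adjusted p = 0.0034). Cebpa was also called under total count scaling (0.78, edgeR adjusted p = 0.00556), where the median of all genes was 0.13.

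For Rxra, Cebpb and Foxa2 the groups overlapped. Rxra had 558 to 677 CPM in saline livers, against 536, 506 and 651 CPM in chow livers, and its log2 fold change of 0.11 (edgeR adjusted p = 0.777) had a 95% interval of -0.26 to 0.47. Cebpb spread most in chow livers, with 129, 331 and 378 CPM there, so its log2 fold change of -0.68 had an SE of 0.36 (edgeR adjusted p = 0.316). Foxa2 had 27.8 to 36.8 CPM in saline livers, against 29.8, 24.0 and 22.3 CPM in chow livers (log2 fold change 0.35, edgeR adjusted p = 0.328).

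The third comparison set DT livers against chow livers, and so holds diet, injections and toxin together. Nr5a2, Hnf4a and Nr1i3 fell, to 0.730, 0.649 and 0.379 of the chow level, and no member was called higher with TMM scaling. These were 3 of 9 members, where 23% of all genes tested were called (14.8% higher and 8.16% lower; 64.5% of those called were higher, 94.8% under total count scaling, 77.6% under upper quartile scaling, 50.6% with limma-voom and 38.6% of 5676 called with GC correction), and 3 of 9, Nr5a2, Nr1i3 and Rxra, did not overlap between the groups, against 29.2% of all genes. The median log2 fold change was -0.45 for the members and -0.02 for all genes. Each DT liver had Nr5a2 below the 61.2 to 64.0 CPM of the chow livers, with a log2 fold change of -0.45 (SE 0.11, edgeR adjusted p = 0.016). Nr1i3 had 97.0, 354, 85.5 and 75.2 CPM in DT livers, against 389, 384 and 436 CPM in chow livers, a log2 fold change of -1.40 (SE 0.45, edgeR adjusted p = 0.0435). DT liver 2 was the closest to chow. Hnf4a had 600, 1003, 824 and 686 CPM in DT livers, against 1272, 1003 and 1321 CPM in chow livers, where DT liver 2 and chow liver 2 were level (log2 fold change -0.62, SE 0.19, edgeR adjusted p = 0.036).

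These calls depended on single livers and on the setting. The Nr5a2 call ended without chow livers 1, 2 or 3 (adjusted p = 0.0528, 0.0544 and 0.0600). The Nr1i3 call held only in the refit without DT liver 2 and ended in the other 10 (adjusted p = 0.0587 to 0.117). The Hnf4a call held in 3 of 11 refits, those without saline liver 2, saline liver 3 or DT liver 2, and ended in the others (adjusted p = 0.0512 to 0.125). Under total count scaling Nr5a2 had a log2 fold change of -0.0001, and of -0.44 relative to the median of all genes, which was 0.44 there; its call ended there and with only the compared groups (adjusted p = 0.0521). The Hnf4a call also ended under upper quartile scaling (adjusted p = 0.0529), under total count scaling (log2 fold change -0.18, adjusted p = 0.367), with only the compared groups (adjusted p = 0.101) and with the replicate block (adjusted p = 0.0923). The Nr1i3 call also ended under upper quartile scaling (adjusted p = 0.0515), with no filter on low counts (adjusted p = 0.130) and with only the compared groups (adjusted p = 0.119).

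Rxra was lower in all 4 DT livers than in the chow livers but missed the threshold (log2 fold change -0.48, SE 0.17, edgeR adjusted p = 0.0566; 0.00739 without DT liver 2). Cebpa had 268 to 460 CPM in DT livers, against 354 to 425 CPM in chow livers, with DT livers 1, 3 and 4 below the chow range and DT liver 2 above it (log2 fold change -0.31, edgeR adjusted p = 0.255; -0.53, 0.00282 without DT liver 2). Nr1i2 had a log2 fold change of -0.20 (edgeR adjusted p = 0.263), with 83.1 to 109 CPM in DT livers and 105 to 117 CPM in chow livers. For Cebpb, Foxa2 and Onecut1 the groups overlapped and the adjusted p was between 0.215 and 0.345. Other settings called some of these members. Foxa2 was higher under total count scaling (0.73, edgeR adjusted p = 0.0232), where the median of all genes was 0.44. With GC correction Cebpa (-0.72), Nr1i2 (-0.49) and Rxra (-0.88) were lower (edgeR adjusted p = 0.0452, 0.0415 and 0.0138). The median of all genes was -0.22 there. DESeq2 also called Rxra lower (-0.45, adjusted p = 0.0401). All 3 comparisons share livers, so the fold changes of a gene in them are not independent of each other.

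Within a liver, the ratio of 2 factors does not depend on how libraries are scaled, and the ratios of TPM are given without a test because the pairs were chosen after the levels were seen. PXR over CAR (Nr1i2 over Nr1i3) was 1.70, 0.532, 2.05 and 1.91 in DT livers 1 to 4, against 0.468 ± 0.0475 in saline livers (SD, n = 4) and 0.479 ± 0.0247 in chow livers (SD, n = 3). DT livers 1, 3 and 4 were above all 7 other livers, and DT liver 2 was inside the saline range. The overlap of Nr1i3 with Tomm40l enters the size of this ratio, and its part was not tested. Cebpa over Hnf4a was 0.763 ± 0.132 in DT livers, 1.54 ± 0.119 in saline livers (SD, n = 4 each) and 0.613 ± 0.0331 in chow livers (SD, n = 3). Saline livers, from 1.37 to 1.64, were apart from both other groups, which overlapped. Cebpb over Cebpa was 0.648, 0.811, 1.45 and 1.12 in DT livers, against 0.356 to 0.685 in saline livers and 0.534, 1.64 and 1.58 in chow livers.

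**Figure D4:**
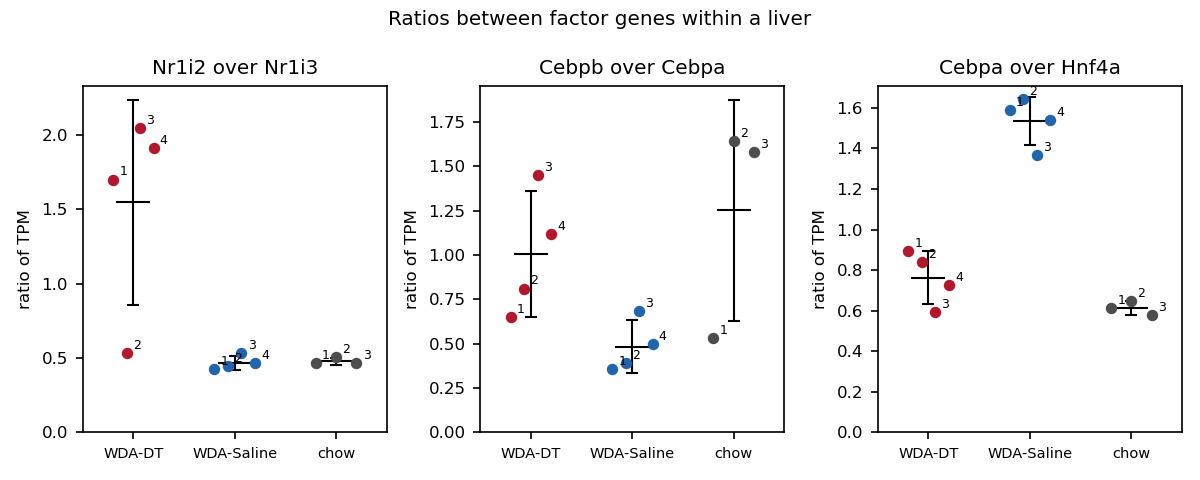
Ratio of TPM (vertical axis, no unit) of Nr1i2 over Nr1i3, Cebpb over Cebpa and Cebpa over Hnf4a in each WDA-DT, WDA-Saline and chow liver, with replicate numbers, group means and SD. The PXR to CAR ratio of DT livers 1, 3 and 4 lies between 1.70 and 2.05, with DT liver 2 at 0.532, and Cebpa over Hnf4a sits highest in the saline livers.

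Liver by liver, in TMM-normalised CPM, DT liver 1 was below the whole saline range for 7 of the 9 members, DT liver 3 for 6, and DT livers 2 and 4 for 4 each. Cebpa, Nr5a2 and Rxra were below it in every DT liver, and Nr1i2 was above it in every DT liver. DT liver 2 was also above it for Hnf4a and Nr1i3. Against the chow range, DT livers 1 and 3 were below for 7 members, DT liver 4 for 6 and DT liver 2 for 4. How often all genes fell outside these ranges in a given liver was not counted. These numbers therefore describe the members only, under TMM scaling.

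Among themselves, Nr5a2 and Rxra had the most similar course over the 11 livers, with a root mean square difference of 0.158 between their centred log2 CPM, and Cebpa lay 0.250 from Nr5a2 and 0.283 from Rxra. Onecut1 and Nr1i3 were the farthest apart (1.68). Outside the set, among the 3 genes most like each member by that measure, of 9756 searched over the same 11 livers, were Ide, Zyg11b and Ngly1 for Nr5a2 (0.0778 for Ide), Pdzk1 and Acsm5 for Cebpa (0.112 for Pdzk1) and Cdv3, Riok2 and Tomm70a for Rxra (0.0967 for Cdv3). Nr1i2 was closest to Nob1 (0.120), Gtf2ird2 and Dxo, and Hnf4a to Pfkfb1 (0.139), Wbp1l and Brpf3. Foxa2 was closest to Asrgl1 (0.140), Tfcp2l1 and Hsdl1, Cebpb to Pim3 (0.184), Yod1 and Prob1, and Nr1i3 to Serpina1c (0.171), B430119L08Rik and Adtrp. No gene was near Onecut1, for which Ifit1, Nrep and Dipk2a came first (0.641 for Ifit1). These are descriptions of 11 livers that share group differences and library depth.

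Among 21 related factors of the hepatocyte network, 2 rose and 6 fell in DT against saline livers, where 14.3% of all genes rose and 7.62% fell. The median log2 fold change of the list was -0.18. Nr1h4, the gene of the bile acid receptor FXR, had 73.8, 129, 65.1 and 66.9 CPM in DT livers, against 156, 163, 118 and 163 CPM in saline livers (log2 fold change -0.84, SE 0.21, edgeR adjusted p = 0.018). Foxa1, the relative of Foxa2, fell by 0.93 on the log2 scale, Onecut2 fell by 0.95 and Prox1 by 0.64. The cholangiocyte markers summed higher in all 4 DT livers too. The list gave 12 calls without DT liver 2, but 3, 1 and 0 without saline livers 1, 2 and 4 and 4, 2 and 1 without DT livers 1, 3 and 4. In saline against chow livers 0 of the 21 were called, by edgeR, DESeq2 or limma-voom, and 3 had an unadjusted p below 0.05. Of all genes tested, edgeR called 5.58% there, and 23% in DT against chow livers. Against chow livers, DT livers had higher Hnf4g, at 1.31 CPM or less in every liver, and lower Creb3l3 and Nr1h4 (log2 fold change -0.79 and -0.84), with 10 calls without DT liver 2 and 0 or 1 without chow livers 1 or 3 or DT livers 3 or 4.

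Of 14 RXR relatives and partner receptors, 2 rose and 4 fell in DT against saline livers, where 14.3% of all genes rose and 7.62% fell. Ppara, the receptor that drives fatty acid oxidation, had 61.9, 102, 92.9 and 83.1 CPM in DT livers, against 246, 263, 235 and 297 CPM in saline livers. The groups were far apart, and the log2 fold change was -1.61 (SE 0.15, edgeR adjusted p = 0.000871), larger than that of any of the 9 members that passed. Pparg, known for lipid storage, had 11.1 to 13.4 CPM in DT livers, against 18.7 to 23.6 CPM in saline livers (log2 fold change -0.70, edgeR adjusted p = 0.00727), and the thyroid hormone receptor gene Thrb fell by 0.99 on the log2 scale. Rarg and Ppard, of retinoic acid and fatty acid receptors, rose by 1.01 and 0.84 (edgeR adjusted p = 0.00711 and 0.0114). Pparg was lower under total count scaling too, but missed the threshold there (-0.36, adjusted p = 0.126), and without DT liver 2 the calls of the list were 10.

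In saline against chow livers, Pparg rose, with 18.7 to 23.6 CPM in saline livers, against 5.92, 4.34 and 5.79 CPM in chow livers (log2 fold change 1.93, edgeR adjusted p = 0.000125). Ppara rose as well, with 235 to 297 CPM in saline livers, against 146 to 159.8 CPM in chow livers (log2 fold change 0.75, edgeR adjusted p = 0.0224), a call that held in 6 of 11 refits without 1 liver and ended without any 1 of the chow livers or saline liver 2 or 4. Of the 14 genes, 2 rose and none fell there, where 2.45% of all genes rose and 3.13% fell. Between DT and chow livers 3 of 14 rose and 2 fell, where 14.8% of all genes rose and 8.16% fell. Pparg was higher (1.22, edgeR adjusted p = 0.00148), Rarg was higher (1.00, adjusted p = 0.00775), and Ppara was lower (-0.86, adjusted p = 0.00568). Vdr, the vitamin D receptor gene, was called higher at 0.311 CPM or less in DT livers, with 0 counts in all chow livers, and the 5 calls of the list became 3 without any 1 chow liver or DT liver 3 or 4, and 8 without DT liver 2.

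Of 10 coregulators of nuclear receptors, Ncoa2 and Ncor1 fell in DT against saline livers (log2 fold change -0.48 and -0.66, edgeR adjusted p = 0.0107 and 0.0125), and none rose, where 7.62% of all genes fell and 14.3% rose. Under total count scaling neither was called and 3 others of the list were called higher, and with GC correction 5 were called lower. Ncor1, a corepressor, had 79.0, 126, 118 and 123 CPM in DT livers, against 165 to 191 CPM in saline livers. In both comparisons with chow livers 0 of 10 were called by edgeR, DESeq2 or limma-voom, with 1 at an unadjusted p below 0.05 in saline against chow livers and 1 in DT against chow livers. Of all genes tested, edgeR called 5.58% in saline against chow livers and 23% in DT against chow livers. Other settings did make calls. In DT against chow livers 4 were higher under total count scaling, 3 were lower with GC correction, and 1 was higher and 1 lower without DT liver 2. With only the compared groups, 1 was higher and 1 lower in saline against chow livers.

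Among known targets of the factors, called genes went both ways in several lists. Over all genes tested, 14.3% were called higher and 7.62% lower in DT against saline livers. These shares were 2.45% and 3.13% in saline against chow livers, and 14.8% and 8.16% in DT against chow livers. The lists are short, and their counts were not tested against these shares. Of 12 HNF4A targets, 1 rose and 2 fell in DT against saline livers, with a median log2 fold change of -0.50. Apob, the gene of the structural protein of VLDL, had 893, 7562, 4077 and 4195 CPM in DT livers 1 to 4, against 11892 to 12114 CPM in saline livers and 10532 to 10703 CPM in chow livers. Saline and chow livers were tight, all DT livers were lower, and DT liver 1 stood lowest (DT against saline log2 fold change -1.52, edgeR adjusted p = 0.0329, with calls in 5 of 11 refits without 1 liver). Exons of Apob are long. Long genes (8000 exonic bases or more) lay lower relative to short ones in DT livers 1 and 2 (log2 -0.10 and -0.28) and higher in DT livers 3 and 4 (0.31 and 0.40). Each liver was measured against the mean of the saline and chow livers, which keeps those livers themselves near 0. Saline livers had 0.02 to 0.07 and chow livers -0.11 to -0.02, and DT liver 1 was inside the chow range. The part of transcript length in these values was not tested. Apoc2, at 3.66 CPM or less in DT livers, rose and Otc, of the urea cycle, fell by 0.52 on the log2 scale (edgeR adjusted p = 0.0318 and 0.045), with calls in 6 and 1 of 11 refits without 1 liver. The Apoc2 call ended with limma-voom and with GC correction. The Otc call ended under upper quartile and total count scaling, with only the compared groups and with GC correction. Overlapping genes were searched for the members only, so overlap of Apoc2 with other genes was not tested. The list gave 8 calls without DT liver 2, 1 without saline liver 1, and 0 without saline livers 2, 3 or 4 or DT livers 3 or 4.

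In saline against chow livers, the HNF4A target Apoa4, an apolipoprotein of lipid absorption and export, rose with 2328 to 3531 CPM in saline livers, against 499.5 to 593 CPM in chow livers (log2 fold change 2.40, edgeR adjusted p = 0.000441). G6pc, the last enzyme of glucose release, fell, with 99.2 to 242 CPM in saline livers, against 526 to 709.8 CPM in chow livers (-1.67, edgeR adjusted p = 0.00487). Apoc2 fell by 2.19, a call that held in 7 of 11 refits without 1 liver and ended with limma-voom and with the replicate block. Apoa4 and G6pc kept these directions in DT against chow livers (2.30 and -1.32), where Mttp, F11 and Otc fell too, so that 1 of 12 rose and 4 fell, with a median log2 fold change of -0.66 (3 calls without chow liver 2 and 9 without DT liver 2).

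Of 8 C/EBP targets, Arg1 rose and Gys2 and Adh1 fell in DT against saline livers, where 21.9% of all genes were called (log2 fold change 0.60, -0.90 and -0.75, edgeR adjusted p = 0.0302, 0.0194 and 0.0357), and Cebpa itself was lower in all 4 DT livers. Those 3 calls became 1 without saline livers 2 or 3 or DT liver 3, and 0 without saline liver 4. Arg1 had 1522 to 2040 CPM in DT livers, against 969 to 1403 CPM in saline livers and 2009 to 2739 CPM in chow livers, and Gys2, liver glycogen synthase, had 93.4 to 176 CPM in DT livers, against 216 to 384 CPM in saline livers. Arg1, Pck1 and Tat, of the urea cycle, gluconeogenesis and tyrosine breakdown, fell in saline against chow livers (-1.04, -1.29 and -1.61), and none of the 8 rose; 1 call was left without chow livers 2 or 3 or saline livers 2 or 3. Pck1 was the 1 gene of the 8 called in DT against chow livers (-1.07, edgeR adjusted p = 0.0166), and lost that call without chow livers 2 or 3 or DT liver 4.

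Of 8 LRH-1 targets, 2 fell in DT against saline livers, where 7.62% of all genes fell. These were Abcg5 and Abcg8, which together form the transporter of cholesterol into bile. Abcg8 had 229.6, 261, 147 and 131 CPM in DT livers, against 293 to 450 CPM in saline livers and 115 to 126 CPM in chow livers. DT livers lay between the other groups, and the log2 fold change against saline livers was -0.91 (SE 0.22, edgeR adjusted p = 0.0157). Abcg5 fell by 0.68 (edgeR adjusted p = 0.0268), and 1 of these calls was left without saline livers 1 or 4 or DT liver 4 and 0 without DT liver 3. Both had risen in saline against chow livers (Abcg5 by 2.23 and Abcg8 by 1.60 on the log2 scale, edgeR adjusted p = 0.000443 and 0.0048), while Apom fell (-1.05). In DT against chow livers Abcg5 was higher (1.55), and Apom and Cyp8b1, the enzyme that sets the cholic acid share of bile acids, were lower (-1.13 and -2.30). The Cyp8b1 call held in 5 of 11 refits without 1 liver (adjusted p up to 0.107, without DT liver 4; -3.13 without DT liver 2) and ended with no filter and with the replicate block. The Apom call in saline against chow livers held in 3 of 11 refits and ended under total count scaling (adjusted p = 0.0511), with GC correction (adjusted p = 0.0536), with limma-voom and with the replicate block.

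Of 7 PXR targets 0 were called in DT against saline livers by edgeR or limma-voom and 1 by DESeq2, with 4 at an unadjusted p below 0.05, where Nr1i2 itself was called higher, and 3 were called without DT liver 2. Also 0 of 7 were called in saline against chow livers by edgeR and limma-voom, against 3 by DESeq2 (5 at an unadjusted p below 0.05). There 4 were called without DT liver 2, 1 higher and 3 lower, and 6 with only the compared groups, 2 higher and 4 lower. Set against chow livers, 2 of the 7 rose in DT livers and 3 fell, where 14.8% of all genes rose and 8.16% fell. Cyp3a11, the main PXR-induced enzyme of mouse liver, had 3254 to 4457 CPM in DT livers, 4331 to 5676 CPM in saline livers and 6761 to 7717 CPM in chow livers (DT against chow -0.94, SE 0.17, edgeR adjusted p = 0.00549), and Cyp3a25 fell by 1.43. The Cyp3a genes are close relatives, and how reads shared between them were counted is not stated. The exporter gene Abcb1a rose, with 18.7, 4.02, 16.3 and 20.3 CPM in DT livers, against 2.47 to 3.36 CPM in chow livers (2.38, edgeR adjusted p = 0.0106), and the 5 calls became 3 without any 1 chow liver.

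Of 7 CAR targets 3 rose and 1 fell in DT against saline livers, where 14.3% of all genes rose and 7.62% fell. Cyp2b10, the enzyme by which CAR activity is usually read in mice, had 67.1, 15.0, 18.0 and 43.7 CPM in DT livers, against 0.787 to 4.24 CPM in saline livers and 4.25, 1.72 and 20.1 CPM in chow livers. All DT livers were above all saline livers, DT liver 2 included (log2 fold change 3.97, SE 0.81, edgeR adjusted p = 0.00921). Gadd45b rose by 2.19 and the exporter gene Abcc4 by 2.27, and Abcc4 in DT liver 2, at 5.14 CPM, was inside the saline range. Ugt1a1, which conjugates bilirubin, had 104 to 262 CPM in DT livers, against 321 to 354 CPM in saline livers (-0.90, edgeR adjusted p = 0.0195). So Cyp2b10 and Ugt1a1, both targets of CAR, moved in opposite directions. In saline against chow livers Gadd45b fell (-2.23, edgeR adjusted p = 0.0185, a call that ended without any 1 chow liver or saline livers 2, 3 or 4) and the other 6 were not called, and in DT against chow livers Abcc4 rose (2.66, edgeR adjusted p = 0.0128, lost without chow livers 1 or 2) and the other 6 were not called.

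**Figure D5:**
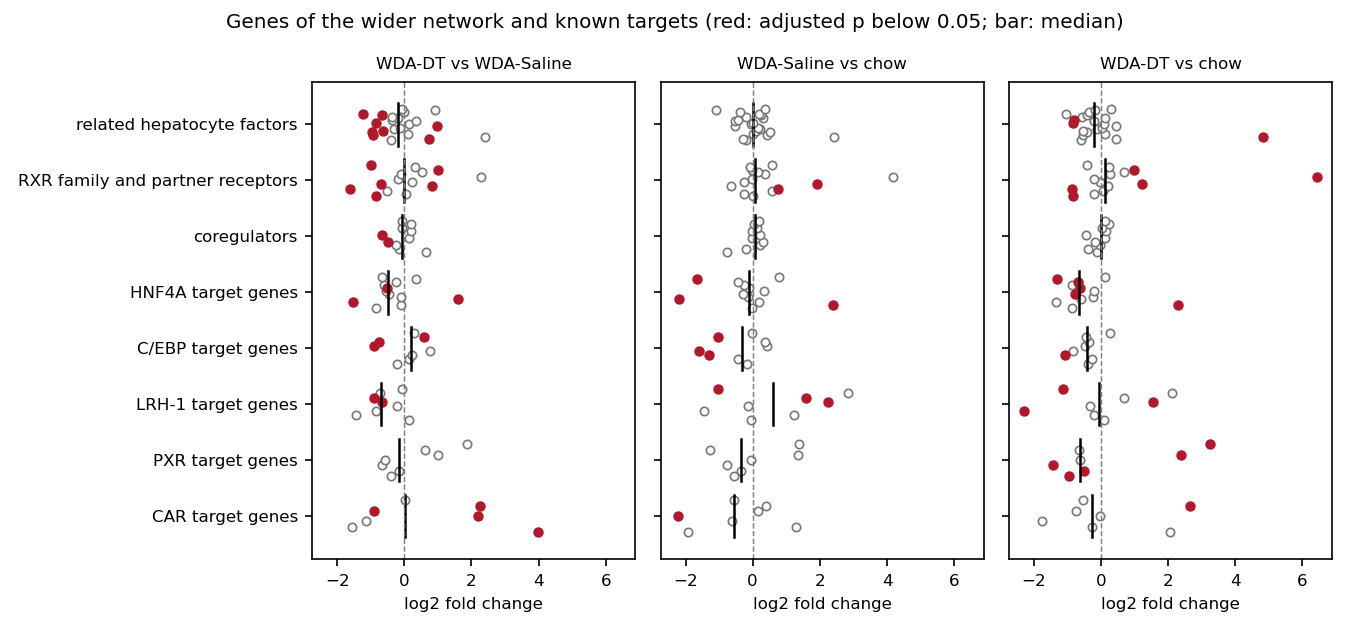
Log2 fold change (horizontal axis) of each tested gene of 8 lists, the relatives, partners and coregulators of the factors and their known targets, in WDA-DT against WDA-Saline, WDA-Saline against chow and WDA-DT against chow; red points have an edgeR adjusted p below 0.05 and the black bar is the list's median. Called genes stand on both sides of 0 in most lists, and the largest rise among called genes of the first panel is Cyp2b10 (3.97).

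The called factors of injury and epithelial plasticity were all higher. Of 11, 6 rose and 0 fell in DT against saline livers, 2 rose in saline against chow livers and 5 rose in DT against chow livers. Over all genes tested, 14.3%, 2.45% and 14.8% were called higher in these comparisons. Sox9, a factor of bile duct cells and of hepatocytes that turn toward them, had 28.9, 5.56, 21.8 and 39.2 CPM in DT livers, against 2.30 to 3.80 CPM in saline livers and 15.8, 7.08 and 9.46 CPM in chow livers (DT against saline log2 fold change 2.96, SE 0.49, edgeR adjusted p = 0.00577). It is 1 of the 6 cholangiocyte markers summed above. Atf3, of the stress response, had 18.7, 3.70, 9.01 and 10.2 CPM in DT livers, against 1.49 to 3.86 CPM in saline livers (2.14, edgeR adjusted p = 0.0107), and Myc, Snai1 and Klf6 rose by 1.92, 1.74 and 1.54. DT liver 2 had the least of Sox9, Atf3, Myc, Snai1 and Klf6 among DT livers. Atf3 and Fos also rose in saline against chow livers (2.34 and 2.91, edgeR adjusted p = 0.0322 and 0.0283), calls that held in 3 and 6 of 11 refits without 1 liver; without DT liver 2 this list gave 7 calls there, 5 higher and 2 lower, and 0 without chow livers 1 or 2 or saline livers 1, 2 or 3.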

How the data were processed

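RNA of whole liver from 11 mice was measured by sequencing. The deposited values are raw counts per gene, 1 column a liver, made by the authors with STAR and featureCounts on GRCm39 after FastQC, per the submitters' processing notes. The versions, the annotation, the strand setting and the handling of read mates are not given in the sources used here. Low counts were even in 76.6% to 81.5% of cases, so counts were also halved. The labels' extraction text speaks of CD45-positive cells, which the whole-liver labels and the hepatocyte markers go against. Rows without a gene name (1416 of 55414) kept their identifiers.

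Counts were filtered with filterByExpr (edgeR 4.0.16, limma 3.58.1, R 4.3.3), scaled by TMM and fitted with edgeR's quasi-likelihood model, robust, with 1 mean per group over all 3 groups (8 residual degrees of freedom, common biological coefficient of variation 30.1%). Two-sided p-values were adjusted by Benjamini-Hochberg over all 17038 genes. Changes are log2 fold changes, and log2 CPM used a prior count of 2. TPM used exonic lengths of GENCODE on GRCm38, as did the search for overlapping genes. Promoter windows were matched by symbol for all 9 members. No 2 livers of a group were copies. The script was tested on simulated data.

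The members and gene lists were chosen with earlier results of these data known. Beside the members, the text names called list genes, up to 5 per list and comparison by smallest p, and the 3 genes nearest each member; a few items that this rule names are not reported here. Alternatives were RLE, upper quartile and total count scaling, DESeq2 1.42.0, limma-voom, 2 other filters, only the compared groups, a replicate block, halved counts, a GC correction (loess, span 0.3) and each liver left out.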

Additional observations from a re-analysis of the deposited data

Results flagged for a closer look

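Of 24 sets of 4 livers examined (9 members, 3 ratios, DT and saline livers), 3 held 1 liver farther from the others than Dixon's 95% limit, and chance gives about 1 in 20. Cebpa in DT liver 2 was at 460 CPM (459.9), against 268 to 293 CPM in the other DT livers. Nr1i3 in DT liver 2 was at 354 CPM, against 75.2 to 97.0 CPM in the other DT livers. The Cebpa value of DT liver 2 lies between the other DT livers and the saline livers (603 to 644 CPM), while its Nr1i3 value lies above all saline livers (241 to 298 CPM) and below all chow livers (384 to 436 CPM). This liver also lay close to saline livers on the first principal component, and its cholangiocyte markers summed to 8.89 CPM; no cause was tested. Onecut1 in saline liver 4 was at 46.5 CPM, against 11.3 to 16.7 CPM in the other saline livers.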

How the results depend on the processing

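In DT against saline livers, Cebpa and Nr5a2 were called under every setting and in every refit without 1 liver, and 3 to 5 members were called over all of these. In saline against chow livers, members called were 2 under total counts, 4 by DESeq2, 5 with only the compared groups, 2 with the replicate block, 0 with GC correction and 0 to 4 over refits without 1 liver, against 1. Between DT and chow livers they were 1 under upper quartile scaling, 0 with only the compared groups (a fit with fewer livers), 6 with GC correction and 0 to 5 without 1 liver, against 3; the highest count was without DT liver 2 and the lowest without chow livers 1, 2 or 3. Calls over all genes in DT against saline livers were 5629 under total counts, 2303 with only the compared groups and 1786 (without saline liver 2) to 6824 (without DT liver 2), against 3734. Between DT and chow livers they were 6536, 2089, 2210 with the replicate block and 1786 (without chow liver 1) to 6834 (without DT liver 2), against 3919. In saline against chow livers they were 1721 by DESeq2, 3105 with only the compared groups, 559 with the replicate block and 287 (without chow liver 1) to 1924 (without DT liver 2), against 950. The cause of these differences was not tested. The labels do not say whether replicate numbers, which the groups share, mark a pairing. Correlations of same-numbered livers ran from -0.16 to 0.18 between DT and saline livers and from -0.12 to 0.05 in the other comparisons. So few correlations cannot settle it. With the block Onecut1 was called in DT against saline livers (edgeR adjusted p = 0.0192).

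Directions of uncalled members turned as follows. In DT against saline livers, Foxa2 was at 0.26 under total counts and 0.059 without DT liver 3 (-0.19 to 0.059 over refits without 1 liver), Hnf4a at -0.28 with GC correction, -0.012 without saline liver 2 and -0.10 without DT liver 2 (up to 0.16 without DT liver 1), and Cebpb at -0.43 with GC correction and at -0.083, -0.068, -0.055 and -0.078 without saline liver 1, saline liver 2, DT liver 2 and DT liver 3. In DT against chow livers, Cebpa was at 0.12 and Nr1i2 at 0.25 under total counts, where the median of all genes was 0.44, and Foxa2 at -0.16 with GC correction, where it was -0.22. Precision is limited by 3 or 4 livers a group, and is given by the 95% intervals of the members.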

Other observations

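All 5 Kupffer cell markers of the list, Clec4f among them, were called lower in DT than in saline livers, and their summed level was 111 to 183 CPM in DT livers, 246 to 359 CPM in saline livers and 197 to 293 CPM in chow livers. Erythroid markers, 3 globin genes, were lower as well, at 28.7 to 51.5 CPM in DT livers, against 72.3 to 128 CPM in saline livers. Endothelial markers summed to 184 to 217 CPM in DT livers, against 249 to 265 CPM in saline livers, with 2 of 5 called lower. Leukocyte markers summed to 13.2 to 36.0 CPM in DT livers, against 13.6 to 22.3 CPM in saline livers, with DT livers 3 and 4 the highest, and 1 of 5 was called higher. The TMM factors of DT livers 1, 3 and 4 were 1.23 to 1.30, and that of DT liver 2 was 0.97, inside the 0.92 to 0.97 of saline livers.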
